A study of Mus musculus with 6 samples.

Results

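The suppressor of cytokine signalling (SOCS) family was examined in macrophages sorted from implanted tumours. All 8 genes of the family, Socs1 to Socs7 and Cish, were taken by symbol from a deposited table of 15487 genes, and each was found in it once. The macrophages came from CT26 tumours, a mouse colon carcinoma line, 15 days after tumour challenge. The implanted tumour cells are labelled Sg-C3 in 3 libraries and Sg-Con in 3 libraries. The labels do not spell these names out, while the title of the series names complement C3. All macrophage samples are labelled BALB/C and wild type, so the difference between the groups lies in the implanted cells and not in the genotype of the host, and the labels give no age or site of implantation. C3 of the tumour cells was not measured in these macrophage libraries, so the labels could not be checked by it. Nothing says whether each library stands for its own animal or whether the Sg-C3 cells were 1 clone, and p-values therefore speak of differences among libraries that may be technical repeats. The comparison asks whether genes that restrain cytokine signalling differ between macrophages of Sg-C3 and Sg-Con tumours.

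SOCS proteins are feedback inhibitors. A cytokine bound to its receptor activates JAK kinases, these phosphorylate STAT factors, and the STAT factors then switch on SOCS genes, whose products bind the receptor or the kinase through an SH2 domain and shut the signal down. The SOCS box at their C-terminus recruits elongin B, elongin C, CUL5 and RNF7, a ubiquitin ligase that marks bound proteins for degradation. SOCS1 and SOCS3 also block the JAK catalytic site directly. In macrophages SOCS1 limits the response to interferon gamma, and SOCS3 limits signalling from IL-6 through the receptor chain gp130.

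The promoters of 3 members that were higher in Sg-C3 are shown, because STAT factors act on this family through short DNA motifs there. The windows run from 250 bases before to 50 bases after the annotated start, and come from RefSeq on GRCm38.p6, which is the C57BL/6J genome and not BALB/c. Capitals mark matches to TTCNNNGAA, the gamma-activated site bound by STAT dimers, and to a pair of GAAA blocks with 2 bases between them, the core of an interferon-stimulated response element, searched on both strands.
Cish promoter, chr9:107296409-107296708, + strand: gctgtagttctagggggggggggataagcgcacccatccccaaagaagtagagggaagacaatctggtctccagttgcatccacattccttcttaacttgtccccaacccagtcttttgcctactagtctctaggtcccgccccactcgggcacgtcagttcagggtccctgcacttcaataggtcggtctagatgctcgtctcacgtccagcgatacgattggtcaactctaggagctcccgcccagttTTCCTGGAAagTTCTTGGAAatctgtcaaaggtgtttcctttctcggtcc
Socs1 promoter, chr16:10785487-10785786, - strand: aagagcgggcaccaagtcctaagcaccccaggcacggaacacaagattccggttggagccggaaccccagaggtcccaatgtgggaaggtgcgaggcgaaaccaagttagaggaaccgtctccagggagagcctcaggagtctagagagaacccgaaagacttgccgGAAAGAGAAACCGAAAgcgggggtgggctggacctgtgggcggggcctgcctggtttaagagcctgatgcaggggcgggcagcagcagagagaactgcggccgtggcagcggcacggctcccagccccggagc
Socs3 promoter, chr11:117969317-117969616, - strand: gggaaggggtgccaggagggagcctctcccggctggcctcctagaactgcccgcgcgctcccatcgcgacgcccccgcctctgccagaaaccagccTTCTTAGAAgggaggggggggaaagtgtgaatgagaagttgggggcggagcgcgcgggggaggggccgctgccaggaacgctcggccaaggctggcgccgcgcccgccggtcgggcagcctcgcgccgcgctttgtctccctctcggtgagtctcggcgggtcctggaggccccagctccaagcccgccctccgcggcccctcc

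The Cish window held TTCNNNGAA 2 times, as TTCCTGGAA starting at base 0 from the annotated start and as TTCTTGGAA starting at base 11. These matches lie side by side with 2 bases between them, and 0.457% of all 32851 windows held the motif at least 2 times. The Socs3 window held it once, as TTCTTAGAA with its first base at -154 from the start, and 8.3% of all windows held it at least once. The Socs1 window held no TTCNNNGAA but held the GAAA pair 2 times, as GAAAGAGAAA from base -83 to -74 and as GAAACCGAAA from base -77 to -68, which overlap by 4 bases, and 3.44% of all windows held that motif. A further motif, TTC and GAA with 4 bases between them, which STAT6 prefers, was found in 6.95% of all windows and in none of these. The Socs4 window, the only other one of the family in the table, held none of these motifs. A match describes letters in the window, and binding was not measured.

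Transcripts of 4 family members, Cish, Socs1, Socs2 and Socs3, were higher in macrophages from Sg-C3 tumours, and the other 4, Socs4, Socs5, Socs6 and Socs7, did not pass the test. Values are FPKM as deposited, a level scaled to the length of the transcript and the depth of the library. Differences are log2 fold changes, Sg-C3 minus Sg-Con, of log2(FPKM + 1), tested with limma, and a gene is called where its p, adjusted by Benjamini-Hochberg over 11198 tested genes, is below 0.05. Of those genes 12.7% were called higher and 31.7% lower, so 4 of 8 higher and 0 of 8 lower stand against a background in which 44.4% of genes were called. That background moved with the libraries and the scaling: 1418 genes were higher and 3554 lower, against 879 and 2414 without Sg-C3 replicate 1, 810 and 1970 without Sg-C3 replicate 2, 1854 and 2449 with quantile-normalized values and 2209 and 1965 with median-ratio scaling. All 8 members had at least 1 FPKM in all 6 libraries. In the 4 called members every Sg-C3 library lay above every Sg-Con library, as it did in 16.2% of tested genes, while the groups did not overlap in either direction in 57.6%. Tested genes had a median log2 fold change of -0.16, and a difference from that median is given as a relative value. In these bulk samples fewer cells of a type and less RNA per cell cannot be told apart.

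Cish encodes CIS, an inhibitor that is a textbook target of STAT5 and acts on receptors that signal through it. It had the highest fold change of the family. Its level was 16.0, 14.2 and 10.1 FPKM in Sg-C3 libraries, against 2.80, 2.24 and 5.83 FPKM in Sg-Con libraries. The groups did not overlap, with the lowest Sg-C3 value in replicate 3 and the highest Sg-Con value also in replicate 3. The means were 13.5 ± 3.01 FPKM in Sg-C3 and 3.62 ± 1.93 FPKM in Sg-Con (SD, n = 3 each), a ratio of 3.71, with a log2 fold change of 1.70 (SE 0.29, limma adjusted p = 0.00536) and a relative value of 1.86. The GAS-type pair in the Cish window shown above lies at its start site.

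Socs1, which blocks JAK kinases downstream of interferons, followed a like pattern at a higher level. It had 49.4, 49.2 and 28.8 FPKM in Sg-C3 libraries, against 13.5, 15.6 and 19.1 FPKM in Sg-Con libraries. The groups did not overlap, and replicate 3 was again the lowest of Sg-C3 and the highest of Sg-Con. The means were 42.5 ± 11.8 FPKM in Sg-C3 and 16.0 ± 2.82 FPKM in Sg-Con, a ratio of 2.65, with a log2 fold change of 1.32 (SE 0.23, limma adjusted p = 0.00527) and a relative value of 1.49.

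Socs2, the closest relative of Cish and best known for limiting growth hormone signalling, was the least abundant of the called members. It had 6.98, 5.16 and 3.40 FPKM in Sg-C3 libraries, against 1.52, 2.24 and 2.54 FPKM in Sg-Con libraries. The groups did not overlap, although Sg-C3 replicate 3 lay close to Sg-Con replicate 3. The log2 fold change was 0.97 (SE 0.23, limma adjusted p = 0.0152), from means of 5.18 ± 1.79 FPKM in Sg-C3 and 2.10 ± 0.524 FPKM in Sg-Con, and the relative value was 1.13. The call was lost without Sg-C3 replicate 2, where the log2 fold change was 0.95 and the adjusted p 0.0537.

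Socs3 was by far the most abundant member. It encodes the inhibitor of gp130 and G-CSF receptor signalling and is induced by IL-6 and IL-10. Its level was 536, 593 and 628 FPKM in Sg-C3 libraries, against 385, 411 and 381 FPKM in Sg-Con libraries. The groups did not overlap, and here replicate 3 was the highest of Sg-C3 and the lowest of Sg-Con, the reverse of the order in Cish, Socs1 and Socs2. The means were 586 ± 46.7 FPKM in Sg-C3 and 392 ± 15.9 FPKM in Sg-Con, a ratio of 1.49, with a log2 fold change of 0.57 (SE 0.09, limma adjusted p = 0.00442) and a relative value of 0.74. Its fold change was the lowest of the 4 called members and its spread within groups was also the lowest of them, with a coefficient of variation of 7.97% in Sg-C3 and 4.04% in Sg-Con.

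**Figure D1:**
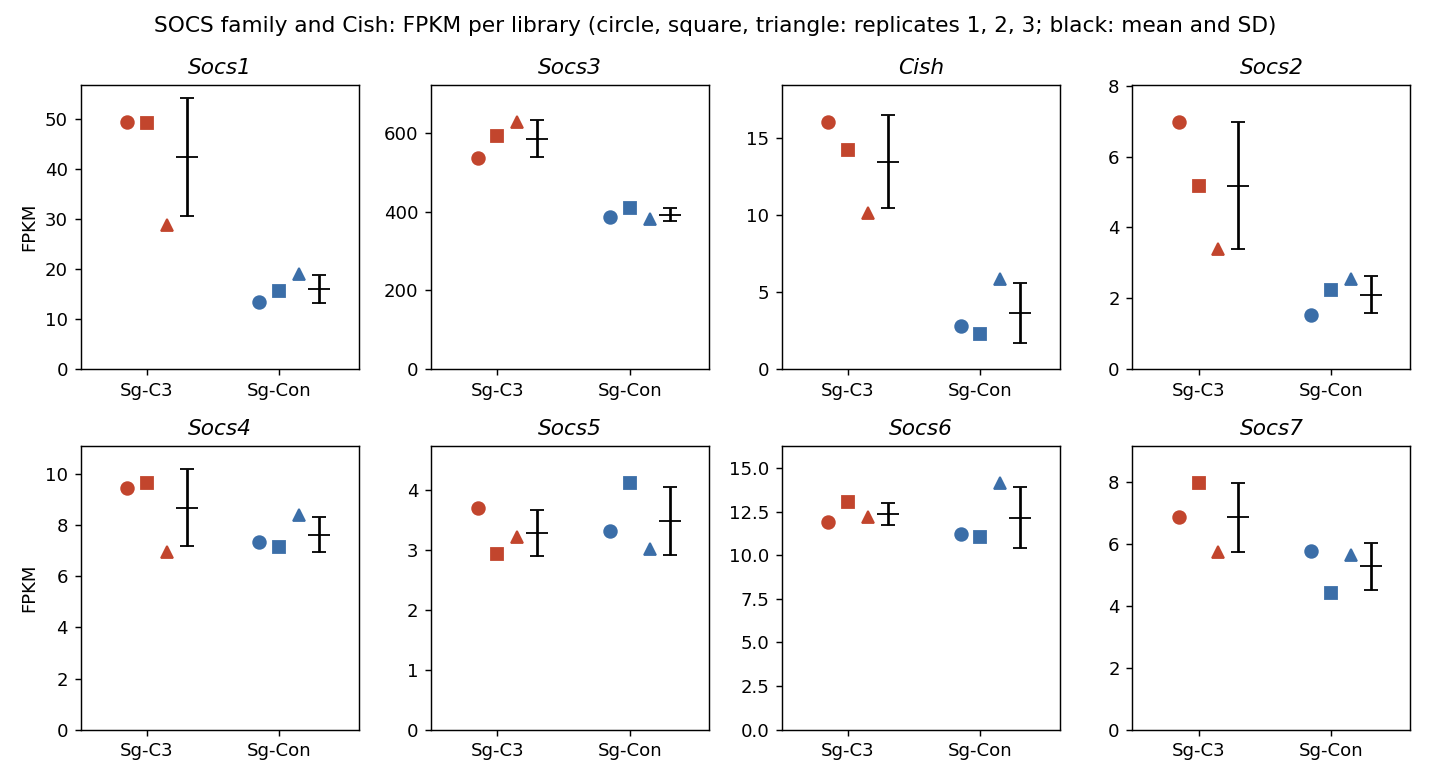
FPKM of each member in each library on linear axes that start at 0 and differ between panels, with Sg-C3 at the left and Sg-Con at the right of each panel, and with the mean and SD in black. In the upper row (Socs1, Socs3, Cish and Socs2) every Sg-C3 library lies above every Sg-Con library, and in the lower row (Socs4 to Socs7) the groups overlap.

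The remaining members stayed within a narrow range. Socs7, an inhibitor linked to insulin receptor substrate proteins, came closest to the threshold, with 6.87, 7.99 and 5.76 FPKM in Sg-C3 libraries, against 5.77, 4.42 and 5.65 FPKM in Sg-Con libraries. The groups overlapped, since Sg-C3 replicate 3 lay 0.01 FPKM under Sg-Con replicate 1. The log2 fold change was 0.32 (SE 0.15, limma adjusted p = 0.107), and the 95% interval of the difference ran from -0.02 to 0.67. Socs7 passed with quantile-normalized values and with median-ratio scaling (log2 fold change 0.49 in each, limma adjusted p = 0.0407 and 0.0397).

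Socs4, a relative of Socs5 that binds the EGF receptor, had 9.45, 9.66 and 6.94 FPKM in Sg-C3 libraries, against 7.33, 7.13 and 8.41 FPKM in Sg-Con libraries. Sg-C3 replicate 3 lay below all Sg-Con libraries, and the 95% interval of the difference ran from -0.17 to 0.49 (limma adjusted p = 0.387). Socs6, which binds the receptor tyrosine kinase KIT, had 11.9, 13.1 and 12.2 FPKM in Sg-C3 libraries, against 11.2, 11.1 and 14.2 FPKM in Sg-Con libraries. Its groups overlapped throughout, with a 95% interval from -0.24 to 0.31 (limma adjusted p = 0.834). Socs5, which has been linked to IL-4 and EGF receptor signalling, had 3.69, 2.93 and 3.21 FPKM in Sg-C3 libraries, against 3.32, 4.12 and 3.02 FPKM in Sg-Con libraries. Its groups overlapped too, with a 95% interval from -0.38 to 0.25 (limma adjusted p = 0.705), and its fold change of -0.07 became 0.09 with quantile-normalized values and 0.08 with median-ratio scaling.

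**Figure D2:**
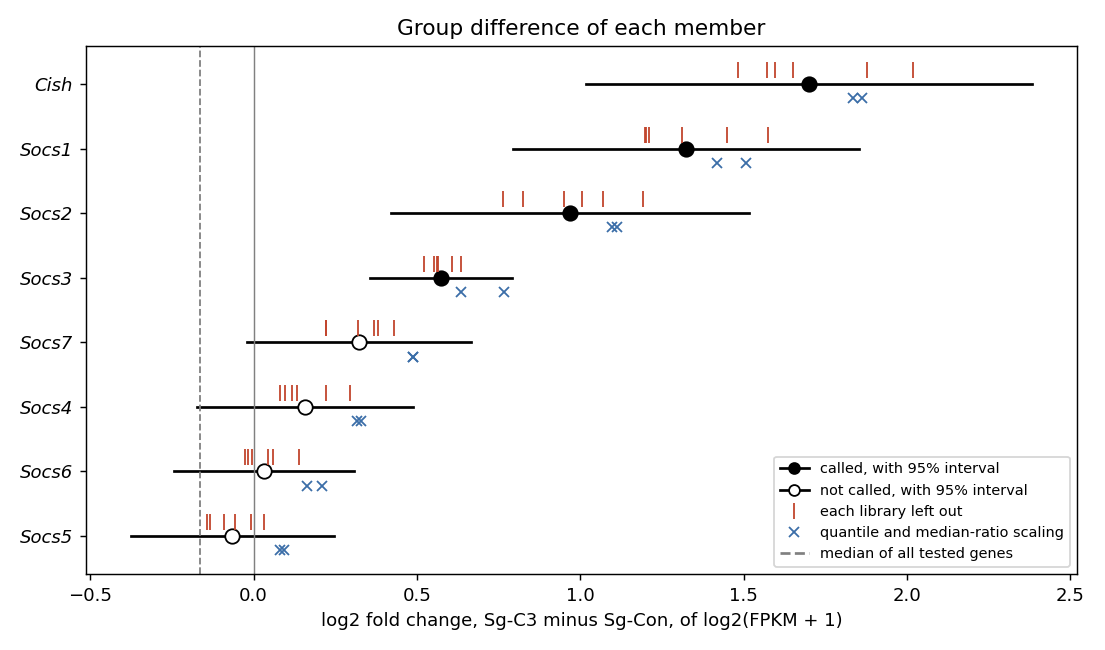
Log2 fold change of each member, Sg-C3 minus Sg-Con, on the log2(FPKM + 1) scale, with limma's 95% interval; short red bars are the values with each library left out and blue crosses those after quantile and median-ratio scaling. The 4 filled points (Cish, Socs1, Socs2 and Socs3) are called higher and their intervals lie above 0, and the open points did not pass.

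Replicate 3 of each group stood apart in Cish, Socs1 and Socs2 in one direction and in Socs3 in the other. Expressed as the deviation from its own mean over the 6 libraries on the log2(FPKM + 1) scale, Sg-C3 replicate 3 stood at 0.50 for Cish, 0.16 for Socs1 and 0.04 for Socs2, below the other Sg-C3 libraries. The deviation of Socs3 was highest there, at 0.39, against 0.16 and 0.31 in Sg-C3 replicates 1 and 2. In Sg-Con replicate 3 the deviations were -0.21 for Cish, -0.41 for Socs1 and -0.28 for Socs2, above the other Sg-Con libraries, and -0.33 for Socs3, below them. Over the 6 libraries, which share the 2 groups, Pearson's r was 0.97 between Socs1 and Socs2, 0.96 between Socs1 and Cish, 0.92 between Socs2 and Cish and 0.82 between Socs1 and Socs3, as a description of these libraries. The immediate early gene Fos, chosen after its values were seen, also stood apart in replicate 3, at 670 FPKM against 205 and 159 FPKM in the other Sg-C3 libraries, and at 459 FPKM against 682 and 643 FPKM in the other Sg-Con libraries. Its part in the family's values was not tested.

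**Figure D3:**
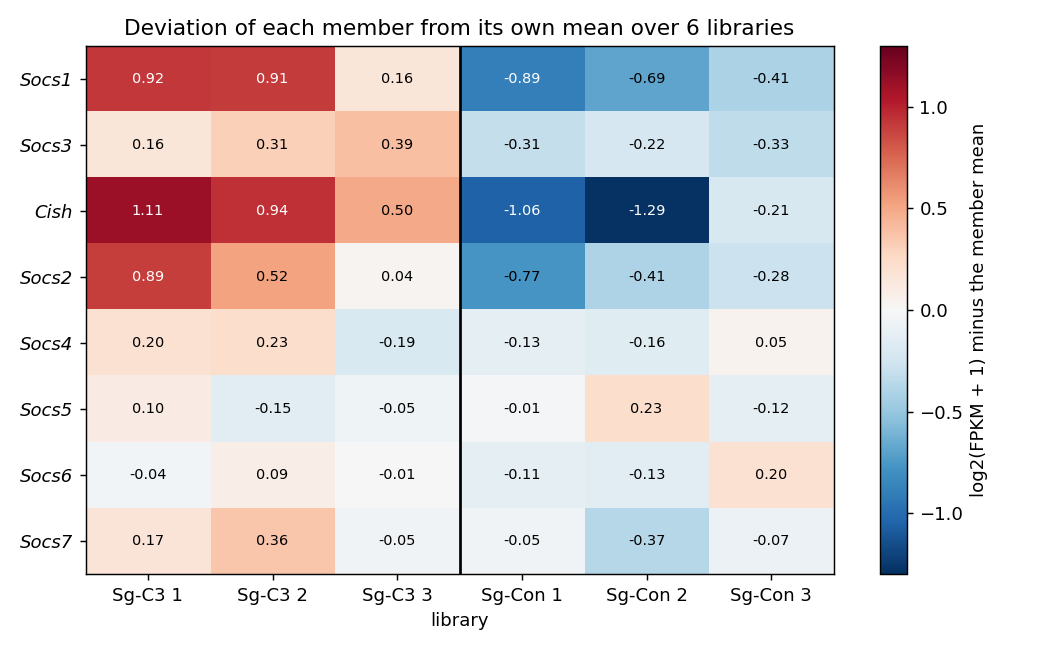
Deviation of each member (rows) from its own mean over the 6 libraries (columns, Sg-C3 at the left and Sg-Con at the right of the black line), in log2(FPKM + 1). Socs1, Cish and Socs2 are closest to 0 in replicate 3 of each group, while Socs3 is farthest from 0 there.

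The sample titles follow different styles, and replicate 3 of each group bears the other style (SGC3_ and CON_ in place of C3KO_ and TAM_). The labels do not say what the style stands for. Between the 4 libraries titled C3KO_ and TAM_ the log2 fold changes were 2.20 for Cish, 1.70 for Socs1, 1.29 for Socs2 and 0.50 for Socs3, and all 4 were called (limma adjusted p = 0.00335, 0.00354, 0.0107 and 0.0319). Between the library titled SGC3_ and that titled CON_, which allow no test, the differences were 0.71 for Cish, 0.57 for Socs1, 0.31 for Socs2 and 0.72 for Socs3. The differences of Cish, Socs1 and Socs2 were thus larger between the C3KO_ and TAM_ libraries and that of Socs3 was larger between the SGC3_ and CON_ libraries, and whether these sizes differ beyond the spread between libraries was not tested. With the style as a covariate all 4 were called (limma adjusted p = 0.0111 for Cish, 0.0107 for Socs1, 0.0258 for Socs2 and 0.0122 for Socs3).

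FPKM is a level per length, so members can be ranked within a library, as far as the lengths used fit the transcripts present. Those lengths are not given. In GENCODE, transcripts of Socs2 run from 948 to 2222 bases and those of Socs6 from 2814 to 6036 bases. The ranks and shares of such members depend on the length used. In Sg-C3 the order of mean FPKM was Socs3, Socs1, Cish, Socs6, Socs4, Socs7, Socs2 and Socs5. The ranges of Cish and Socs6, of Socs4 and Socs7, of Socs7 and Socs2 and of Socs2 and Socs5 overlapped, so these neighbours were not separated. In Sg-Con the order was Socs3, Socs1, Socs6, Socs4, Socs7, Cish, Socs5 and Socs2, and Socs1 overlapped with Socs6, Socs7 with Cish and Cish with Socs5. Cish thus stood at rank 3 in Sg-C3 and at rank 6 in Sg-Con.

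The summed level of the family was 640, 695 and 699 FPKM in Sg-C3 libraries, against 431, 457 and 440 FPKM in Sg-Con libraries. Socs3 made up most of it, 86.3% ± 3.23 in Sg-C3 and 88.6% ± 1.71 in Sg-Con (SD, n = 3 each). The share of Socs1 was 6.31% ± 1.92 in Sg-C3 and 3.62% ± 0.63 in Sg-Con, and that of Cish was 2% ± 0.528 in Sg-C3 and 0.822% ± 0.443 in Sg-Con. The shares of Cish (higher in Sg-C3) and of Socs4, Socs5 and Socs6 (lower in Sg-C3) did not overlap between groups, each with an exact two-sided permutation p = 0.1, the smallest that 3 against 3 libraries allow, and p = 0.2 after adjustment over the 8 members. The FPKM of Socs4, Socs5 and Socs6 overlapped between groups, so their lower shares reflect the larger sum in Sg-C3, most of which was Socs3. The share of Socs1 overlapped between groups, at 4.13% in Sg-C3 replicate 3 and 4.33% in Sg-Con replicate 3 (exact p = 0.2).

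Close relatives within the family were compared by their log2 ratio in each library, in 4 pairs. The log2 ratio of Cish to Socs2 averaged 1.25 ± 0.13 in Sg-C3 and 0.51 ± 0.48 in Sg-Con, a difference of 0.73, without overlap (exact two-sided permutation p = 0.1, 0.267 adjusted over the 4 pairs). That difference was 0.48 without Sg-Con replicate 2 and 0.95 without Sg-Con replicate 3. The log2 ratio of Socs1 to Socs3, the members that block JAK kinases directly, averaged -3.79 ± 0.53 in Sg-C3 and -4.54 ± 0.26 in Sg-Con, a difference of 0.75. It was -4.40 in Sg-C3 replicate 3, inside the Sg-Con range of -4.74 to -4.25 (exact p = 0.2). The ratios of Socs4 to Socs5 and of Socs6 to Socs7 overlapped as well, with differences of 0.22 and -0.29 (exact p = 0.5 and 0.2). No pair passed, and with 3 libraries per group none could.

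The genes most like each called member, by Pearson's r of log2(FPKM + 1) over the 6 libraries, were Smim3, Igsf6 and Fbxo11 for Socs1 (r = 1.000, 0.997 and 0.997), Smad6, Zfp275 and Fbxl12 for Socs2 (r = 0.997, 0.996 and 0.996), Amigo3, Crebbp and Inpp5j for Cish (r = 0.995, 0.995 and 0.994) and Id2, Cysltr2 and Adck3 for Socs3 (r = 0.997, 0.991 and 0.986). Id2 had 403, 458 and 524 FPKM in Sg-C3 libraries, against 235, 254 and 242 FPKM in Sg-Con libraries. Such values are common with 6 libraries in 2 groups: of 10569 genes compared, r was above 0.9 for 8.05% with Socs1, 6.2% with Socs2, 8.59% with Cish and 3.58% with Socs3.

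Genes of the kinases and transcription factors upstream of the family were mostly higher in Sg-C3. Beside the counts of this list and of those below, 12.7% of all tested genes were called higher and 31.7% lower. Of 11 tested JAK and STAT genes 6 were higher and 1 lower, with a median log2 fold change of 0.75 beside -0.16 for all tested genes. Jak2, the kinase of interferon gamma and GM-CSF receptors, had 104, 124 and 91.4 FPKM in Sg-C3 libraries, against 26.2, 27.2 and 35.9 FPKM in Sg-Con libraries (log2 fold change 1.81, SE 0.16, limma adjusted p = 0.00107). Stat4, Stat2 and Stat3 were higher by log2 fold changes of 2.09, 1.02 and 0.75. Stat5a had 31.9, 31.7 and 15.5 FPKM in Sg-C3 libraries, against 10.04, 11.7 and 18.1 FPKM in Sg-Con libraries, with replicate 3 lowest in Sg-C3 and highest in Sg-Con as in Cish and Socs1. Its groups overlapped and its call was marginal (log2 fold change 0.91, limma adjusted p = 0.0492), and it was lost in 7 of 14 other fits, with an adjusted p of up to 0.153. Stat6, the only lower member, had a log2 fold change of -0.49 and was not called when replicate 1 or 2 of either group was left out or after median-ratio scaling, and 2 members were lower without Sg-C3 replicate 3.

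Among the genes of cytokines that signal through JAK and STAT, 12 of 16 tested members were higher and 1 lower, with a median log2 fold change of 1.20. Of these 16, Il4 and Il12a passed the filter on low values only through Sg-C3, where they are high, so the filter could not have let them in without a difference. With no filter, 13 of all 23 measured members were higher and 1 lower. Clcf1, a ligand of the gp130 group, Il27, a cytokine of the IL-12 family, and Il12a, a subunit of IL-12, had log2 fold changes of 2.10, 3.25 and 1.42. Il10, whose receptor drives Socs3, had 716, 955 and 737 FPKM in Sg-C3 libraries, against 290, 368 and 452 FPKM in Sg-Con libraries. Il6 had 80.3, 127 and 63.8 FPKM in Sg-C3 libraries, against 18.8, 15.6 and 24.6 FPKM in Sg-Con libraries. Osm, another gp130 cytokine, was the lower member (log2 fold change -0.98). Ifng, measured but under the filter on low values, had 0.85 to 1.62 FPKM in Sg-C3 libraries and was listed at 0 in each Sg-Con library.

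Receptor genes went both ways, with 12 of 27 tested members higher and 6 lower (median log2 fold change 0.26). Il2ra, Il2rb and Il12rb2 passed the filter only through Sg-C3 and account for 3 of the 12. With no filter, 11 of all 30 measured members were higher and 5 lower. Csf2rb and Csf2rb2, beta chains of cytokine receptors that activate STAT5, had log2 fold changes of 1.27 and 1.44, although these near-identical genes can share reads. Csf3r, the G-CSF receptor that SOCS3 binds, and Il2rb were higher by 1.12 and 1.92. Lifr, Ifngr1 and Il6ra were lower by log2 fold changes of -1.19, -0.77 and -0.73, while Il6st, the gene of gp130 itself, had 10.8, 12.1 and 9.93 FPKM in Sg-C3 libraries, against 9.45, 11.02 and 13.1 FPKM in Sg-Con libraries (limma adjusted p = 0.907). Without Sg-C3 replicate 2, 7 of the receptor genes still tested were higher, and after median-ratio scaling 3 receptor genes were lower. Il2ra, Il2rb and Il12rb2 were not tested when any Sg-C3 library was left out. Csf3r also counts among the neutrophil markers and Il2rb among the T and NK cell markers.

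The partners of the SOCS box and related proteins showed no common direction. Of 9 ubiquitin ligase partners 2 were higher and 3 lower (median log2 fold change -0.21, near that of all tested genes). Arih2, a ligase that works with CUL5, was higher (log2 fold change 0.79), and Nedd8, the ubiquitin-like protein that activates cullins, and Rnf7 were lower (-0.37 and -0.32). After median-ratio scaling 0 were lower, without any one library other than Sg-C3 replicate 3 only 1 was higher, and without Sg-C3 replicate 2 or Sg-Con replicate 1 only 1 was lower. Cul5 itself had 8.24, 7.65 and 5.99 FPKM in Sg-C3 libraries, against 7.12, 6.71 and 8.27 FPKM in Sg-Con libraries (limma adjusted p = 0.921).

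Of 14 other tested SOCS box genes 1 was higher and 2 were lower (median log2 fold change -0.13). The higher one was Asb2, which had 14.1, 7.19 and 12.5 FPKM in Sg-C3 libraries, against 0.73, 0.10 and 1.45 FPKM in Sg-Con libraries, with a log2 fold change of 2.83 (SE 0.33, limma adjusted p = 0.00201) that exceeded that of every SOCS family member. Spsb2, which targets inducible nitric oxide synthase for degradation, was lower (log2 fold change -0.995), as was Asb3 (-0.49). In this list 3 genes were higher without Sg-C3 replicate 3, 2 without Sg-Con replicate 3 and 4 after median-ratio scaling, and 1 was lower without Sg-C3 replicate 2.

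Other inhibitors of JAK and STAT signalling mostly did not pass, with 3 of 13 higher and 1 lower (median log2 fold change 0.08). The phosphatase genes Ptprc, Ptpn2 and Ptpn1 were higher by log2 fold changes of 0.71, 0.60 and 0.53, and Pias3, an inhibitor of STAT3, was lower (-0.52). No gene of this list was lower when Sg-C3 replicate 1 or 2 or Sg-Con replicate 2 was left out, or with quantile-normalized or median-ratio scaled values, or among genes with a mean of at least 5 FPKM. Among receptor tyrosine kinases and adaptors that SOCS proteins bind, 4 of 13 were higher and 2 lower (median log2 fold change 0.04), with log2 fold changes of 1.18 for Kit, -0.77 for Nck1 and -0.46 for Insr. Kit passed the filter only through Sg-C3 and was not tested when any Sg-C3 library was left out. Among the genes still tested without Sg-C3 replicate 1 or 2, none was higher and 1 was lower. Leaving out Sg-Con replicate 1, 2 or 3 left 2, 1 or 2 of them higher, and 1 was lower without Sg-Con replicate 2.

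Genes taken as targets of STAT factors were counted in 3 lists, which do not separate induced from repressed targets. Of 18 STAT3 targets 7 were higher and 2 lower (median 0.09), among them Fpr2 (1.33), Etv3 (2.05) and Il1rn (1.23), the interleukin 1 receptor antagonist. Only 1 was lower when Sg-C3 replicate 1 or 2 or Sg-Con replicate 2 or 3 was left out, with quantile-normalized or median-ratio scaled values, with no filter and with the title style as a covariate. Of 12 STAT5 targets other than the SOCS genes 4 were higher and 4 lower (median 0.27), with log2 fold changes of 2.75 for Il1r2, 1.74 for Ccl22 and -0.98 for Ccnd1. Of 15 STAT6 targets 5 were higher and 5 lower (median 0.94), with values of 2.45 for Pdcd1lg2, 1.31 for Tgm2 and -2.41 for Mrc1, and 3 were higher without Sg-C3 replicate 1. Of these 15, Pdcd1lg2 passed the filter only through Sg-C3 and was not tested when any Sg-C3 library was left out. Il1r2 is also a neutrophil marker and Ccl22 a dendritic cell marker. The counts of lower STAT5 and STAT6 targets lay near the share over all tested genes, of which 31.7% were lower and 12.7% higher.

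**Figure D4:**
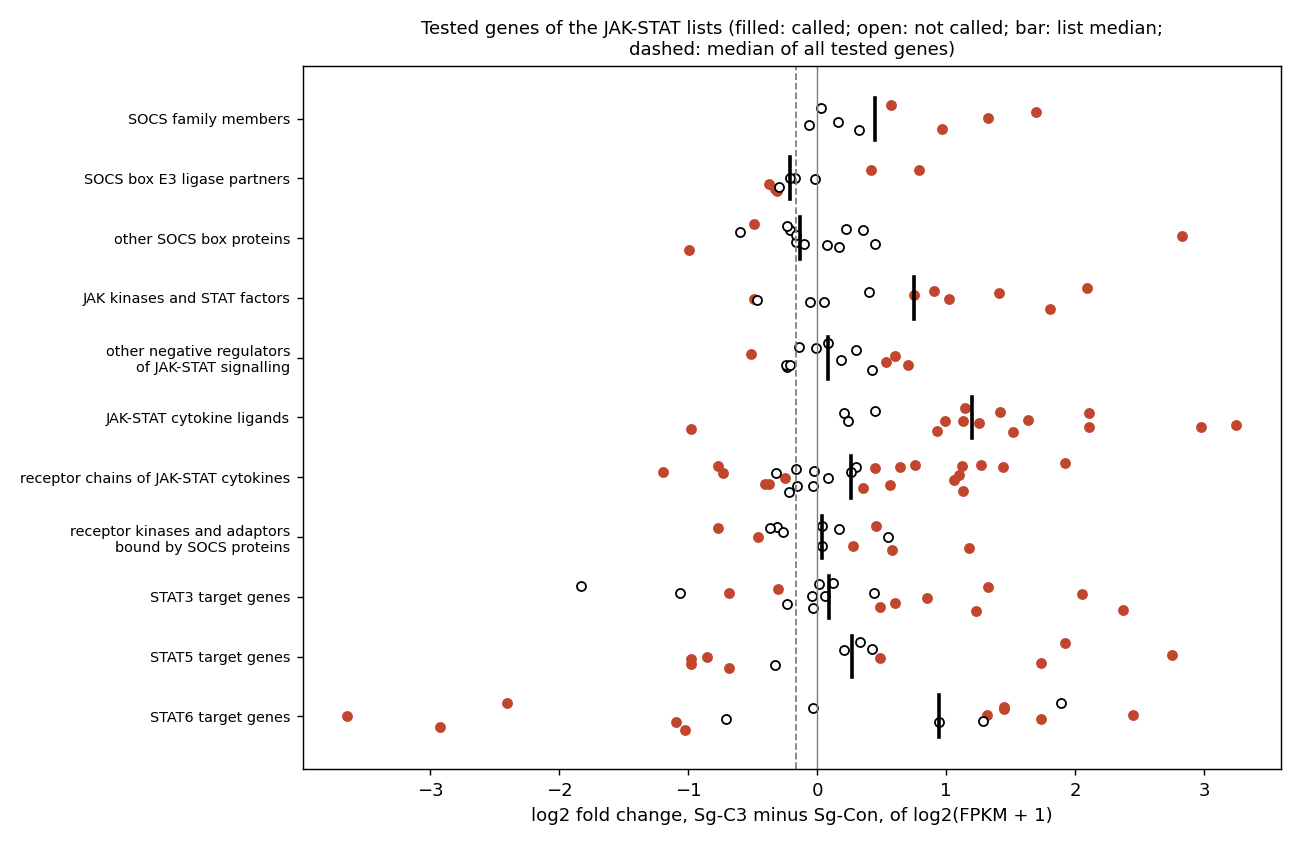
Log2 fold changes, Sg-C3 minus Sg-Con, of tested genes in each list, 1 point per gene, filled where called, with the list median as a black bar and the median of all tested genes (-0.16) as a dashed line. The cytokine ligands have their median at 1.20 with 13 of 16 points filled, and the ubiquitin ligase partners and other SOCS box genes lie around the dashed line with medians of -0.21 and -0.13.

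Between libraries of a group Pearson's r across genes was 0.986 to 0.99, and between libraries of different groups it was 0.945 to 0.974. Each library was thus more like its own group than the other. Replicate 3 of each group lay nearer to the other group. Sg-C3 replicate 3 had r of 0.961 to 0.974 with Sg-Con libraries, against 0.945 to 0.965 for Sg-C3 replicates 1 and 2. The highest value, 0.974, was with Sg-Con replicate 3, which shares its title style. Summed levels of markers of other cells differed between the groups, but the single markers of a list did not all differ alike. Beside the counts of called markers, 12.7% of all tested genes were called higher and 31.7% lower. Of 7 tested dendritic cell markers 5 were higher and 0 lower, and the summed level of the 15 measured was 73.7 to 104 FPKM in Sg-C3 and 16.4 to 25.9 FPKM in Sg-Con. Ccr7 and Il12b were the highest of these in Sg-C3. Fscn1 had means of 7.62 FPKM in Sg-C3 and 7.59 FPKM in Sg-Con, and Zbtb46 of 0.75 and 0.72 FPKM. Of 9 tested T and NK cell markers 8 were higher, but 6 of the 8 had passed the filter only through Sg-C3, so that count is no measure of how the whole list differed. Their sums over 19 measured were 71.1 to 83.8 FPKM in Sg-C3 and 22.3 to 25.7 FPKM in Sg-Con, with Cd3g, Prf1, Nkg7, Ncr1 and Tbx21 listed at 0 in at least 1 library. Of 8 tested neutrophil markers 6 were higher, with sums over 12 measured of 1723, 1213 and 682 FPKM in Sg-C3 libraries 1, 2 and 3 and of 186 to 285 FPKM in Sg-Con, and Ly6g, Camp and Elane were listed at 0 in at least 1 library. Within Sg-C3, Cish, Socs1 and Socs2 had the same order over the libraries as the neutrophil sum and the carcinoma marker sum. Within Sg-Con, Cish had the order of the neutrophil and dendritic cell sums, and Socs1 and Socs2 that of the T and NK cell sum. Socs1 hardly differed between Sg-C3 replicates 1 and 2 (49.4 and 49.2 FPKM), and these orders of 3 libraries were not tested. Fibroblast markers (5 of 9 higher, 2 lower) summed to 164 to 242 FPKM in Sg-C3 and 75.2 to 107 FPKM in Sg-Con. Dcn alone had means of 114 and 21.9 FPKM there, while Col1a2 and Thy1 were lower in Sg-C3. Endothelial markers (1 of 3 higher, and 1 lower that passed only through Sg-Con) summed to 60.9 to 79.9 FPKM in Sg-C3 and 12 to 18.9 FPKM in Sg-Con. Most of that sum was Pecam1, with means of 61.25 FPKM in Sg-C3 and 8.99 FPKM in Sg-Con. Cdh5 was lower in Sg-C3 (means of 0.70 and 1.84 FPKM). Tie1, Egfl7, Emcn and Esam also had lower means in Sg-C3, and Kdr had a higher one. B cell markers (1 of 2 higher) summed to 12.8 to 17.6 FPKM in Sg-C3 and 4.70 to 10.3 FPKM in Sg-Con, with Pax5 listed at 0 in at least 1 library. Carcinoma markers (0 of 2 higher, and 2 lower, of which Krt8 passed only through Sg-Con) summed to 3.06 to 5.29 FPKM in Sg-C3 and 16.9 to 29.9 FPKM in Sg-Con. All 12 macrophage markers were detected, and 4 of 12 were lower, near the 31.7% lower over all tested genes. The 12 summed to 8903 to 11519 FPKM in Sg-C3 and 15007 to 16423 FPKM in Sg-Con. Lyz2 was the highest of these, with means of 3378 FPKM in Sg-C3 and 7712 FPKM in Sg-Con. Adgre1 had means of 172 and 173 FPKM. The part of these cells in the differences of the SOCS genes was not tested.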

How the data were processed

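The authors' deposited table gives 1 FPKM value per gene and library, and its column names give the unit. Per the labels' protocols, macrophages were sorted by flow cytometry, and both a TruSeq and an MGIEasy kit are named. The submitters' processing notes list Bowtie 0.12.2 and mm8. The sources used here do not give how FPKM was computed or whether strand was used.

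FPKM summed to between 474579 and 487358 per library. In 432 short RNA genes, 88.3% to 93% of low values per library were whole multiples of 1 read (within 0.1 read) once 36 bases were taken off each length, against 20% by chance. This implies 17.6 to 19.3 megareads per library, as an estimate. With GENCODE transcript lengths, about 27 to 64 reads lay behind the lowest Socs2 value and about 112 to 117 behind the lowest Cish value.

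Genes were kept where 3 of 6 libraries or more had 1 FPKM or more, which left 11198 genes and all 8 members. A gene is said to have passed only through Sg-C3 where its 3 Sg-C3 libraries reached 1 FPKM and 0 Sg-Con libraries did, and likewise for Sg-Con. They were tested on log2(FPKM + 1) by limma 3.58.1 (R 4.3.3; lmFit and trended eBayes). Fold changes on that scale understate the change of low genes. SE is limma's moderated standard error, and SD is over 3 libraries. Shares and pairs had exact permutation tests. Replicates are numbered in accession order.

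The 8 members, 11 pathway lists, 8 marker lists, motifs and pairs were chosen with earlier results of these data known, and 1 of the pathway lists is not reported here. Named genes are all members, at least the 3 with the smallest p of each reported pathway list, and the 3 most like each called member among genes with a mean of at least 1 FPKM. Alternatives changed the pseudocount (0.1), filter, scaling, weights, threshold (0.1) and libraries used, or added the title style. The comparison of the SGC3_ and CON_ libraries alone was chosen after seeing the data. RefSeq promoter windows matched 4 of 8 members by symbol (Cish, Socs1, Socs3 and Socs4), and protein sequences were not compared. In 10 simulated sets with 200 of 11198 genes changed, 77.2% of 2-fold and 96.5% of 4-fold changes were found, with 5% false calls. The changed genes were drawn only from those whose mean on the log2 scale lay above 5 FPKM. Socs2 and Socs5 lie below that level, so these rates do not cover them. In the data 44.4% of tested genes were called, far more than were changed in the simulated sets.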

Additional observations from a re-analysis of the deposited data

How the results depend on the processing

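Of 118 alternative values for the 8 members, 115 kept their direction and side of the threshold or, where a member was not called, stayed uncalled. The exceptions were Socs2 without Sg-C3 replicate 2 (limma adjusted p = 0.0537) and Socs7 with quantile-normalized values (0.0407) and median-ratio scaling (0.0397), and the cause was not tested. The number of members called higher was 3 to 4 with a library left out, and the number lower was 0 throughout. Over the other 157 tested genes of the pathway lists, 68 were higher and 25 lower. Left-out libraries gave 51 to 65 higher and 14 to 28 lower, and median-ratio scaling gave 14 lower. Genes that passed the filter only through Sg-C3 were not tested when an Sg-C3 library was left out. Of the 157 genes, 52 of the 68 higher and 12 of the 25 lower ones were called in every other fit in which they were tested. Over all tested genes the median difference on the log2 scale was -0.16 as deposited, -0.06 with quantile-normalized values and 0.01 with median-ratio scaling, and the part of all calls that were lower was 71.5% as deposited, 56.9% with quantile-normalized values and 47.1% with median-ratio scaling. All 28 alternative values of the pair ratios and all 48 of the shares moved by less than the spread between libraries. Leaving out 1 of 3 libraries cannot move a group mean by that much, so for those values this outcome was fixed in advance. Only the pair ratios with a pseudocount of 0.1 could have moved further. With a library left out, the difference in the ratio of Cish to Socs2 ran from 0.48 to 0.95 and that of Socs4 to Socs5 from 0.08 to 0.36. Calls over all tested genes ran from 810 to 1423 higher and from 1970 to 3639 lower with a library left out. With 3 libraries per group, exact tests could not reach 0.05. Socs2 and Socs5 fell under the filter of a mean of 5 FPKM and have no value there. No paired analysis was possible because the labels give no replicate numbers that the groups share.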
